A study of Mus musculus with 28 samples.

Results

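Conventional dendritic cells (cDCs) of the liver were chosen by the measured UMI counts of 5 marker genes (Xcr1, Cd209a, Naaa, Plbd1 and Ifi205) in a table of single non-parenchymal cells. UMIs, unique molecular identifiers, count captured mRNA molecules. A member was a well with at least 300 gene UMIs, at least 2 UMIs summed over the 5 markers and at most 1 UMI summed over Siglech, Clec4f, Cd5l, Cd3g, Cd79b and Clec4g, which mark plasmacytoid dendritic cells, Kupffer cells, T cells, B cells and endothelial cells. Of 2692 wells at or above the UMI minimum, 91 were members, which is 3.38% (exact binomial 95% interval 2.73 to 4.13%). The name cDC stands for this rule, and part of the members also carried monocyte or macrophage genes. The cells of this table came from C57BL/6 male mice, 1 aged 3 months with 5 plate libraries and 1 aged 4 months with 6, whose livers were perfused with collagenase after a fast. Transcripts were counted from their 3' ends with MARS-seq, a plate-based single-cell method. A further table held 4621 hepatocytes, each sorted in 1 well with the CD31+ cell that clung to it, from 3 males of that strain aged 6 or 7 weeks. Since the names of single-cell wells show neither library nor mouse, the whole table counts as 1 sample, and differences are given without any test or p-value. Intervals are at 95% and cover counting error only, not the spread between mice.

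Conventional dendritic cells sample their surroundings, cut proteins into peptides and present them to T cells on MHC molecules. The XCR1+ type 1 subset (cDC1), which depends on the transcription factors IRF8 and BATF3, is known for taking up dead cells and cross-presenting their antigens on MHC class I to CD8 T cells. The type 2 subset (cDC2), which carries CD209a, CD11b and SIRPα in the mouse, is known mainly for presentation on MHC class II to CD4 T cells, and its genes overlap with those of monocyte-derived cells. In the liver both subsets lie beside Kupffer cells, the resident macrophages of the sinusoids, which also carry MHC class II.

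Members were compared with 313 Kupffer wells, which held at least 4 UMIs of Clec4f, Cd5l, C1qa, C1qb, C1qc and Vsig4, and with 2288 other wells. The other wells included 119 plasmacytoid dendritic cell wells (at least 2 UMIs of Siglech, Ccr9, Cox6a2 and Klk1) and 184 B cell wells (at least 2 UMIs of Cd79a, Cd79b, Ms4a1 and Vpreb3). Members held a median of 1493 gene UMIs (range 459 to 5419) and 785 genes (range 299 to 2118), against 953 UMIs in Kupffer wells and 674 in other wells. Levels are therefore given as summed UMIs per 1000000 gene UMIs of a class, and a shift of at least 2-fold is called past the fold. By their gaps, the well numbers fell into 11 plate-sized blocks, which no source ties to a library or mouse. Members were 1.83 to 3.63% of the wells in the 5 blocks of lower numbers and 6.12 to 7.20% in 3 blocks of higher numbers. The other 3 blocks held 1 member together, and 0 Kupffer, plasmacytoid dendritic cell or B cell wells.

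The 5 genes of the rule overlapped unevenly within the members, which is a description of the choice and not a finding. A member held 2 to 37 UMIs of these genes, with a median of 7, and 14 members were at the minimum of 2. Xcr1, the receptor of the chemokine XCL1, was found in 30 members with 82 UMIs, and Cd209a, a C-type lectin gene, in 19 members with 66 UMIs. No member held both genes, and 42 members held neither. Naaa, which encodes a lysosomal amide hydrolase, was found in all 30 Xcr1 wells and in 7 of 19 Cd209a wells. Plbd1, a phospholipase B-like gene, was found in 26 Xcr1 wells and 18 Cd209a wells. Ifi205, of the interferon-induced Ifi200 family, was found in 20 Xcr1 wells and 1 Cd209a well. Ifi205, Ifi203 and Mnda are close relatives, so reads could have been split between them in the authors' counting. Members at the minimum of 2 marker UMIs held 14976 UMIs of H2-Aa and 4362 UMIs of Cst3 per 1000000, against 4384 and 2509 in the 106 wells just outside with 1 marker UMI. In the 11 members with 3 marker UMIs these levels were 11399 and 3589, and in the 66 with 4 or more, 15193 and 13053. The 11 wells just outside by 2 UMIs of the excluded genes held 12291 and 13662, so the cap also left out wells with levels like those of members.

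**Figure D1:**
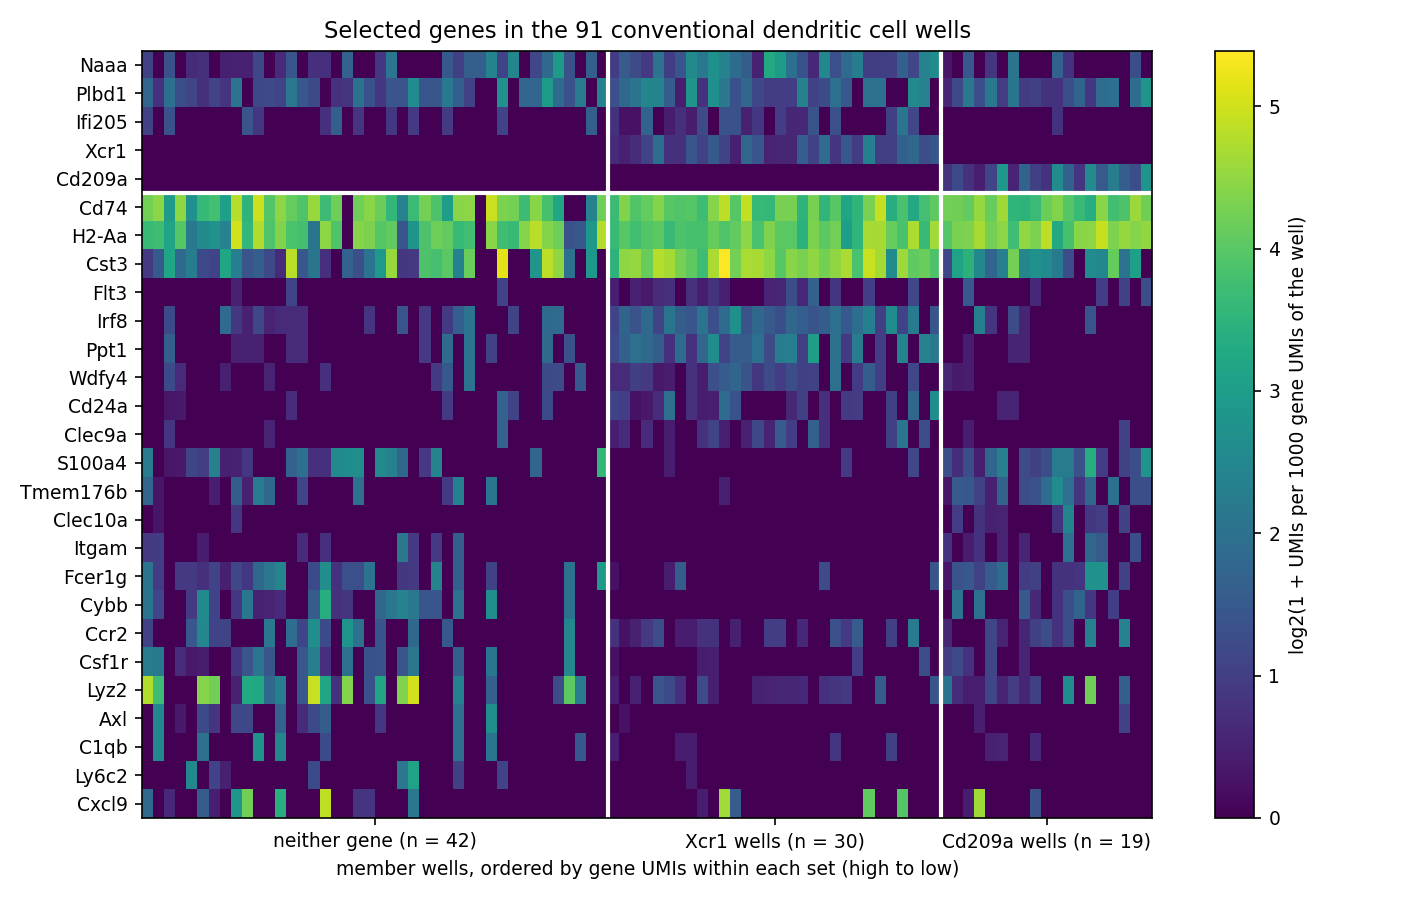
UMIs of selected genes in each of the 91 members, with genes as rows and wells as columns. From left to right, the wells are the 42 with neither gene, the 30 Xcr1 wells and the 19 Cd209a wells. The colour scale is the log2 of UMIs relative to the gene UMIs of the well, after adding 1. Xcr1 and Cd209a share no well, H2-Aa fills nearly every column, and Ppt1 is dense among Xcr1 wells while Tmem176b and S100a4 are dense among Cd209a wells.

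The label was checked against subset genes that the rule did not use, and these divided the members along Xcr1 and Cd209a. The cDC1 list of 20 genes (such as Clec9a, Irf8, Wdfy4, Cadm1 and Tlr3) outweighed the cDC2 list of 21 genes (such as Sirpa, Clec10a, Itgam, Csf1r and S100a4) in 30 of 30 Xcr1 wells. The cDC2 list held more UMIs in 16 of 19 Cd209a wells and the cDC1 list in 3. An Xcr1 well held 7 to 59 UMIs of the cDC1 list, with a median of 25, and 0 to 7 UMIs of the cDC2 list, with a median of 2. A Cd209a well held 0 to 17 UMIs of the cDC1 list, with a median of 2, and 0 to 25 of the cDC2 list, with a median of 8. Among the wells with neither gene, 29 held more UMIs of the cDC2 list, 12 more of the cDC1 list and 1 as many of each. The cDC2 list includes Ccr2 and Csf1r, which monocytes and macrophages also express. Its summed level was 6279 in Cd209a wells, 6307 in wells with neither gene, 5989 in Kupffer wells and 1015 in Xcr1 wells. Of its 13 genes measured against Kupffer wells, 8 were higher in members and 5 lower. The sum of this list thus divided Cd209a wells from Xcr1 wells but did not set Cd209a wells apart from Kupffer wells. The median well held 2121.5 gene UMIs among Xcr1 wells, 1391 among Cd209a wells and 1249.5 among wells with neither gene, and the part of depth in this division was not tested.

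**Figure D2:**
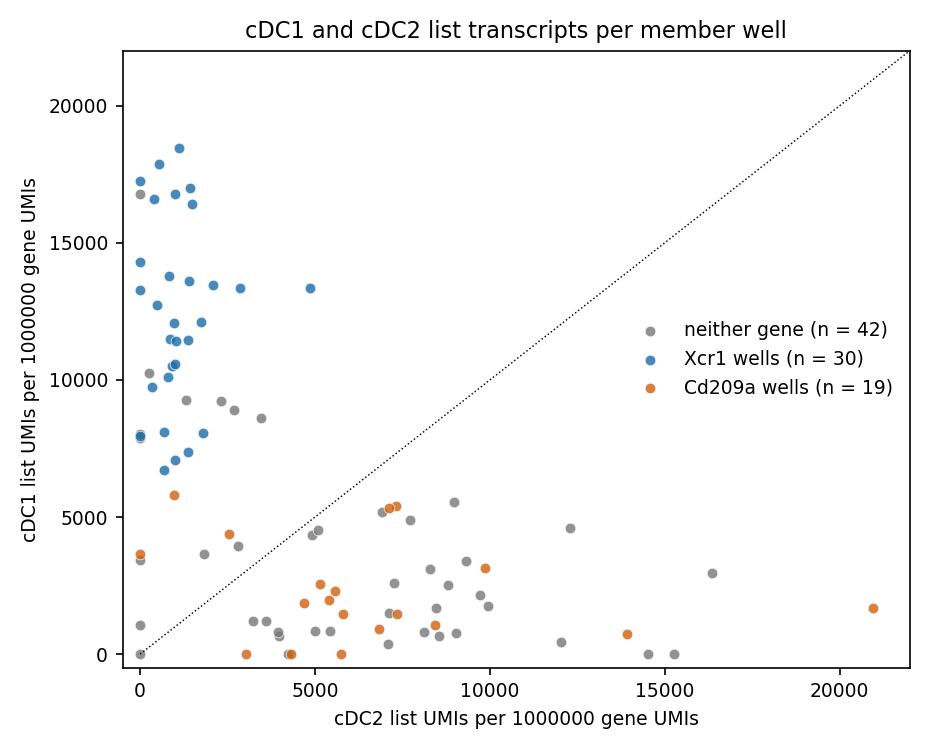
UMIs of the cDC1 list (vertical axis) against UMIs of the cDC2 list (horizontal axis), each per 1000000 gene UMIs of the well, 1 point per member coloured by subset. All 30 Xcr1 points lie at or above 6698 on the cDC1 axis, while no Cd209a point passes 5814; wells with neither gene lie along both axes.

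Markers of other cells were summed without any gene of the member or Kupffer rules, since a rule caps or requires those genes. Leaving these genes out does not undo the rules. Wells rich in Cd3g, Clec4g, Clec4f or Cd5l could not be members, so genes found with them were low in members partly by choice. The T cell list without Cd3g summed to 121 UMIs per 1000000 in members and 2593 in other wells, the neutrophil list to 133 and 898, and the endothelial list without Clec4g to 705 and 8770. The monocyte list of 16 genes summed to 13012 UMIs per 1000000 in wells with neither gene, 2677 in Xcr1 wells, 5992 in Cd209a wells and 10508 in Kupffer wells. The Kupffer list without its 6 rule genes summed to 1452, 544, 889 and 14666 in the same order of classes, and 7 members also met the Kupffer rule. Hepatocyte transcripts summed to 8143 UMIs per 1000000 in wells with neither gene, 5515 in Xcr1 wells, 6251 in Cd209a wells and 12303 in Kupffer wells. The part of any of these in the gene differences below was not tested.

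The main MHC class II chains were found in nearly every member, and H2-Aa, H2-Ab1, H2-Eb1 and Cd74 differed by at most 1.29-fold between Xcr1 and Cd209a wells. H2-Aa, the alpha chain of the I-A molecule, was found in 89 of 91 members, and in 94.5% of members and 55.9% of Kupffer wells when each well was thinned to 300 UMIs. An Xcr1 well held 8 to 77 UMIs of H2-Aa with a median of 33.5, a Cd209a well 12 to 68 with a median of 31, and a well with neither gene 0 to 78 with a median of 17.5. The ranges of the 3 subsets overlapped. Summed over members H2-Aa reached 14724 UMIs per 1000000, against 4639 in Kupffer wells (log2 ratio 1.67, interval 1.58 to 1.75, with 1.81 in the lower and 1.42 in the higher range of well numbers) and 1591 in other wells (log2 ratio 3.21, interval 3.13 to 3.29). H2-Ab1, the beta chain of I-A, was 3.22-fold higher in members than in Kupffer wells, and H2-Eb1, the beta chain of I-E, 3.38-fold. Cd74, the invariant chain that guides class II molecules to endosomes, reached 15637 UMIs per 1000000 in members and 6232 in Kupffer wells, a 2.51-fold difference. Set against the other antigen-presenting classes, H2-Aa in members was 4.87-fold above its level in plasmacytoid dendritic cell wells and 2.36-fold above that in B cell wells. Cd74 was 3.53-fold and 1.66-fold above these classes.

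Of 5081 genes measured against Kupffer wells, 14.8% were at least 2-fold higher in members and 21.9% at least 2-fold lower. With size factors from the median ratio of well-counted genes instead of totals, the counts were 195 higher and 2249 lower, in place of 752 and 1113, and the median log2 ratio over all genes was -0.84 in place of -0.11. In the class II list, 10 of 15 measured genes were at least 2-fold higher and 1 lower, but 4 were higher and 5 lower with size factors. The ratios of H2-Aa, H2-Ab1, Cd74, H2-DMa and H2-DMb1 then lay at 0.94, 0.96, 0.60, 0.66 and 0.78 on the log2 scale, and that of H2-Eb1 at 1.03. The 10 genes above 0 were chains, chaperones and regulators under both scalings. By totals H2-Oa, a chain of the modulator H2-O, held 38 UMIs in members and 1 in Kupffer wells (log2 ratio 6.46, interval 3.89 to 11.80), its partner H2-Ob had a log2 ratio of 3.10, the peptide exchange factor chains H2-DMa and H2-DMb1 1.38 and 1.51, and Ciita, the class II transactivator, 2.25 (interval 1.35 to 3.21). The 5 genes below 0 were the proteases and thiol reductase that process antigen and the ubiquitin ligase gene March1. Lgmn, the asparaginyl endopeptidase legumain, had 28 UMIs in members and 771 in Kupffer wells (log2 ratio -3.58), Ctss, which trims the invariant chain, had a log2 ratio of -0.92, and Ctsh -0.86. Against other wells, where 8.98% of 10136 genes were at least 2-fold higher and 25.4% at least 2-fold lower, all 15 measured genes of the list were above 0 and 13 past the fold.

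Class II promoters share a conserved module of an X box, bound by the RFX complex, and a Y box, bound by NF-Y, on which the CIITA protein acts. Letters of this module are shown for H2-Eb1, H2-DMb1 and H2-Ob, all higher in the members than in Kupffer wells, and for H2-Aa, the class II gene found in most members. The sequences are RefSeq's on GRCm38.p6, read 5' to 3' on the strand of the gene. Capitals mark a match to AACNNATGA, as in an X box, and the match to ATTGG, as in a Y box, that follows it, both searched on both strands.
H2-Eb1, chr17:34305758-34305832, plus strand: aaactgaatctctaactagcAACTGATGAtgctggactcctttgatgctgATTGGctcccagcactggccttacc
H2-DMb1, chr17:34153079-34153154, plus strand: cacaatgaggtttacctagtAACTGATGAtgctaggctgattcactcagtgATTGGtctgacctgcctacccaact
H2-Ob, chr17:34238800-34238872, plus strand: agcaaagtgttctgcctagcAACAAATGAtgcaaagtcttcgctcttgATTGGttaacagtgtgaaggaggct
H2-Aa, chr17:34287847-34287891, minus strand: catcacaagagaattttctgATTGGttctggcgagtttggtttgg
In H2-Eb1, H2-DMb1 and H2-Ob the matches stood 21, 22 and 19 bases apart. In the window of H2-Aa, from 250 bases before to 50 after its start, the letters AACNNATGA were not present. Of 32851 mouse promoter windows of that length, 2.85% held AACNNATGA, 37.4% ATTGG and 1.35% both. Of 11 genes of the class II list with a window, 4 held AACNNATGA, and all 4 also held ATTGG. A match is a description of letters and not a measured site.

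Cst3, which encodes the secreted cysteine protease inhibitor cystatin C, was high in 1 subset above the rest. An Xcr1 well held 5 to 112 UMIs of Cst3 with a median of 41, a Cd209a well 0 to 40 with a median of 6 and a well with neither gene 0 to 49 with a median of 4. Its level was 20340 UMIs per 1000000 in Xcr1 wells and 5620 in Cd209a wells (log2 ratio 1.86, interval 1.64 to 2.08). In wells with neither gene it was 5210, in Kupffer wells 2126. Cst3 in Xcr1 wells was 9.57-fold above Kupffer wells, and in Cd209a wells 2.64-fold.

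Flt3, the receptor of the cytokine that sustains dendritic cells, was sparse and set the Xcr1 and Cd209a wells apart from Kupffer wells. It held 28 UMIs in 17 of 30 Xcr1 wells, 9 UMIs in 5 of 19 Cd209a wells, 4 UMIs in 3 of 42 wells with neither gene and 3 UMIs in 3 of 313 Kupffer wells. With each well thinned to 300 UMIs, 16.7% of Xcr1 wells, 5.26% of Cd209a wells, 0 of 42 wells with neither gene (which allows up to 7.14%) and 0.319% of Kupffer wells kept a UMI, at median depths before thinning of 2121.5, 1391, 1249.5 and 953. Over all members its ratio to Kupffer wells was 31.6-fold (log2 ratio 4.98, interval 3.33 to 7.32). Irf8, the transcription factor of the type 1 subset, was at 2206 UMIs per 1000000 in Xcr1 wells, and that was 1.44-fold below its level in plasmacytoid dendritic cell wells. Levels of Cd209a wells and wells with neither gene were 545 and 527 UMIs of Irf8 per 1000000.

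**Figure D3:**
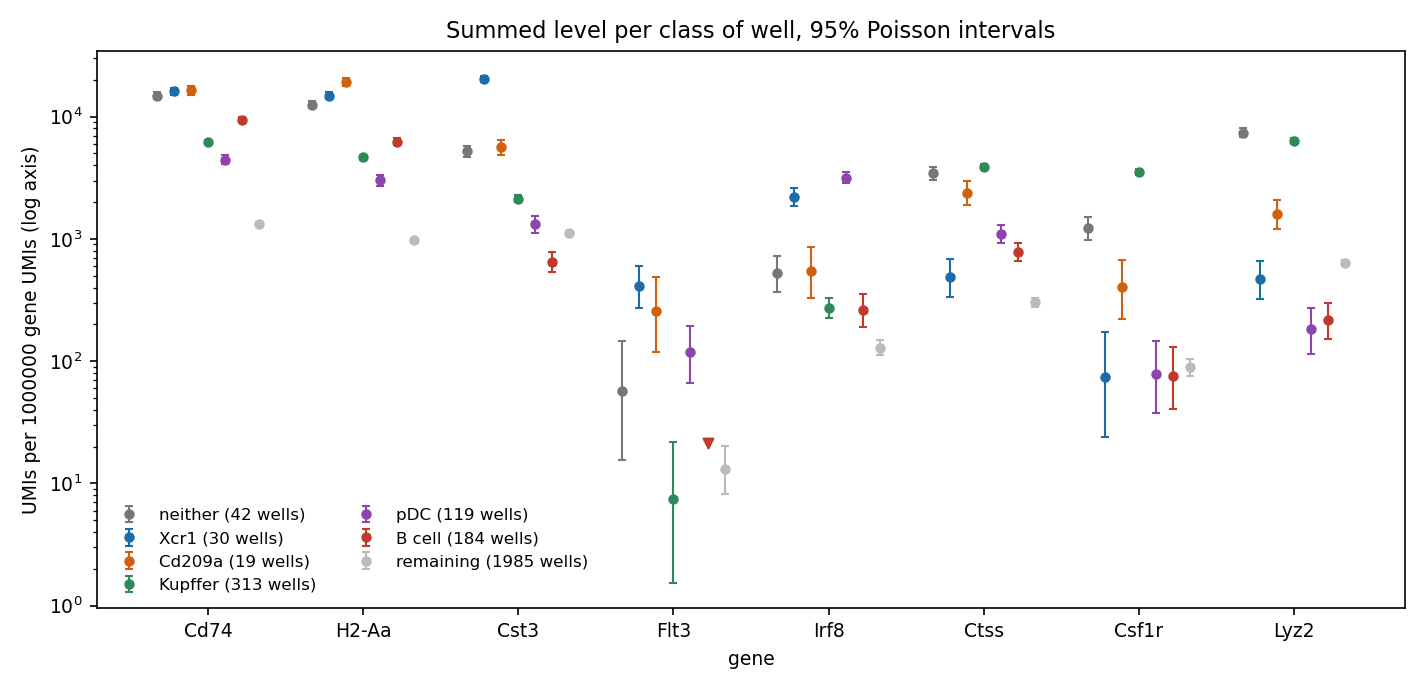
Levels of selected genes, in UMIs per 1000000 gene UMIs on a log axis, by class of wells, with exact Poisson 95% intervals; a triangle marks the upper limit of a class with 0 UMIs. Cst3 in Xcr1 wells stands at 20340 and in Cd209a wells at 5620, while the class II genes differ little between these subsets and lie above Kupffer wells.

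Xcr1 wells and Cd209a wells were then set against each other to find the genes that go with each receptor. Of 1989 genes with at least 10 UMIs over both subsets, 19.4% were at least 2-fold higher in Xcr1 wells and 13.3% at least 2-fold lower, and the median log2 ratio was 0.04. All 15 measured genes of the cDC1 list were above 0, 11 of them past the fold, with a median of 2.02. All 8 measured genes of the cDC2 list were below 0, with a median of -2.96. Both lists were chosen as known subset genes with earlier results of these data known, so their direction is no independent evidence.

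Ppt1, a lysosomal palmitoyl-protein thioesterase gene, showed the largest ratio among the genes higher in Xcr1 wells. An Xcr1 well held 0 to 15 UMIs of it with a median of 4, and a Cd209a well 0 to 1 with a median of 0. The sums were 155 UMIs in 26 of 30 Xcr1 wells and 3 UMIs in 3 of 19 Cd209a wells (log2 ratio 4.73, interval 3.15 to 7.02). Within the lower and higher ranges of well numbers, its log2 ratio was 4.10 and 5.51. Thinned to 300 UMIs, 53.3% of Xcr1 wells and 0 of 19 Cd209a wells kept a Ppt1 UMI, which allows a share of up to 15.8% in Cd209a wells. Next came 5430435G22Rik, which RefSeq calls Rab7b, a small GTPase gene of late endosomes, with 35 UMIs against 1 (log2 ratio 4.17, interval 1.59 to 9.51). Txndc15, a thioredoxin-domain gene, had 28 UMIs against 1, Mnda 27 against 1 and Cd24a, a surface glycoprotein gene, 51 against 2. Anxa1 and Anxa7, which encode annexins, had 25 and 19 UMIs in Xcr1 wells against 1 each in Cd209a wells. The remaining genes with the largest ratios were Mlec, an endoplasmic reticulum lectin gene, Ppm1m, a protein phosphatase gene, and Tlr3, the endosomal sensor of double-stranded RNA, with 24, 24 and 23 UMIs against 1 each. Most of these ratios rest on 1 or 2 UMIs in Cd209a wells, and their intervals are wide, as for Tlr3 (log2 ratio 3.56, interval 0.94 to 8.92).

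Genes of cross-presentation, of the MHC class I pathway and of dead-cell recognition were set apart next. Wdfy4, needed for cross-presentation by cDC1, held 61 UMIs in Xcr1 wells and 4 in Cd209a wells (log2 ratio 2.97, interval 1.54 to 4.89). Clec9a, a receptor for actin exposed on dead cells, held 35 and 2, and Cadm1, an adhesion molecule gene, 29 and 2. Rab43, a small GTPase gene, had a log2 ratio of 1.56 (interval 0.46 to 2.86). Mycl1, which encodes L-Myc, held 23 UMIs in 14 Xcr1 wells and 0 in Cd209a wells, a level at least 3.93-fold higher. Cd36, a scavenger receptor gene, with 21 UMIs against 0, was at least 3.59-fold higher. In the class I list, 15 of 18 measured genes were above 0, with a median of 0.25. At least 2-fold higher were 5 of the 18 and at least 2-fold lower 1, which was Cybb, beside 19.4% and 13.3% of all genes. The proteasome activator genes Psme1 and Psme2 had log2 ratios of 1.43 (interval 0.63 to 2.34) and 1.68 (interval 0.15 to 3.66), and the immunoproteasome gene Psmb9 1.22 (interval 0.26 to 2.31). Among surface molecules of T cell activation, Cd86 held 21 UMIs in Xcr1 wells and 2 in Cd209a wells (log2 ratio 2.43, interval 0.40 to 5.57).

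Tmem176b, a transmembrane protein gene, had the largest ratio on the side of Cd209a wells. A Cd209a well held 0 to 7 of its UMIs with a median of 3, while 1 of 30 Xcr1 wells held a UMI, so the sums were 1 UMI in Xcr1 wells and 51 in Cd209a wells (log2 ratio -6.64, interval -11.97 to -4.09). S100a4, a calcium-binding protein gene, held 3 UMIs in Xcr1 wells and 65 UMIs in 17 of 19 Cd209a wells (log2 ratio -5.40, interval -7.72 to -3.79). Cybb, the catalytic chain of the phagocyte NADPH oxidase, held 0 UMIs in Xcr1 wells and 31 UMIs in 9 Cd209a wells, a level at least 20.1-fold lower in Xcr1 wells. The lower and higher ranges of well numbers gave log2 ratios of -3.81 and -5.76 for Tmem176b, the first a bound, and -5.13 and -5.36 for S100a4. Ms4a4c, of a family of similar membrane proteins, held 2 UMIs in Xcr1 wells and 18 UMIs in 14 Cd209a wells, and Emb, which encodes embigin, 1 and 14. Klf13 and Anp32e had 1 UMI in Xcr1 wells against 11 and 10 in Cd209a wells. Rasgef1b, Bach1 and Ccl3 also met the rule for named genes, but their 11, 10 and 10 UMIs in Cd209a wells came from 2, 3 and 2 wells.

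Several receptors and chemokines of myeloid cells were also lower in Xcr1 wells. Itgam (CD11b) held 0 UMIs in Xcr1 wells and 18 in 9 Cd209a wells, at least 11.7-fold lower in Xcr1 wells, and Clec10a, a galactose-type lectin gene, 0 and 17, at least 11-fold lower. Sirpa held 2 UMIs in 1 Xcr1 well and 13 UMIs in 4 Cd209a wells (log2 ratio -3.66, interval -6.85 to -1.52). Fcer1g, the signalling chain of Fc receptors, held 11 and 46 UMIs (log2 ratio -3.03, interval -4.13 to -2.06), and Fcgr2b, the inhibitory Fc receptor, had a log2 ratio of -2.19. Ccl9 held 0 UMIs in Xcr1 wells and 20 in 9 Cd209a wells, and Ccl6 5 and 31. Ifitm3, an antiviral membrane protein gene, held 9 and 33 UMIs (log2 ratio -2.84).

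Of 14 measured genes of the class II list, 1 was at least 2-fold higher in Xcr1 wells (March1) and 3 at least 2-fold lower (Ctss, Ifi30 and H2-Oa), beside 19.4% and 13.3% of all genes. H2-Ab1 and Cd74 had log2 ratios of -0.01 (interval -0.18 to 0.16) and -0.02 (interval -0.17 to 0.12) between Xcr1 and Cd209a wells, and H2-Aa -0.37 (interval -0.51 to -0.22). Ctss held 33 UMIs in 15 of 30 Xcr1 wells and 83 UMIs in 19 of 19 Cd209a wells (log2 ratio -2.29, interval -2.92 to -1.70). Ifi30, the thiol reductase GILT, had 31 and 62 UMIs (log2 ratio -1.96, interval -2.63 to -1.32), and H2-Oa 9 and 19 (log2 ratio -2.04, interval -3.37 to -0.83). March1, whose product marks class II molecules for turnover, ran the other way with 14 UMIs against 1 (log2 ratio 2.84, interval 0.13 to 8.25).

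**Figure D4:**
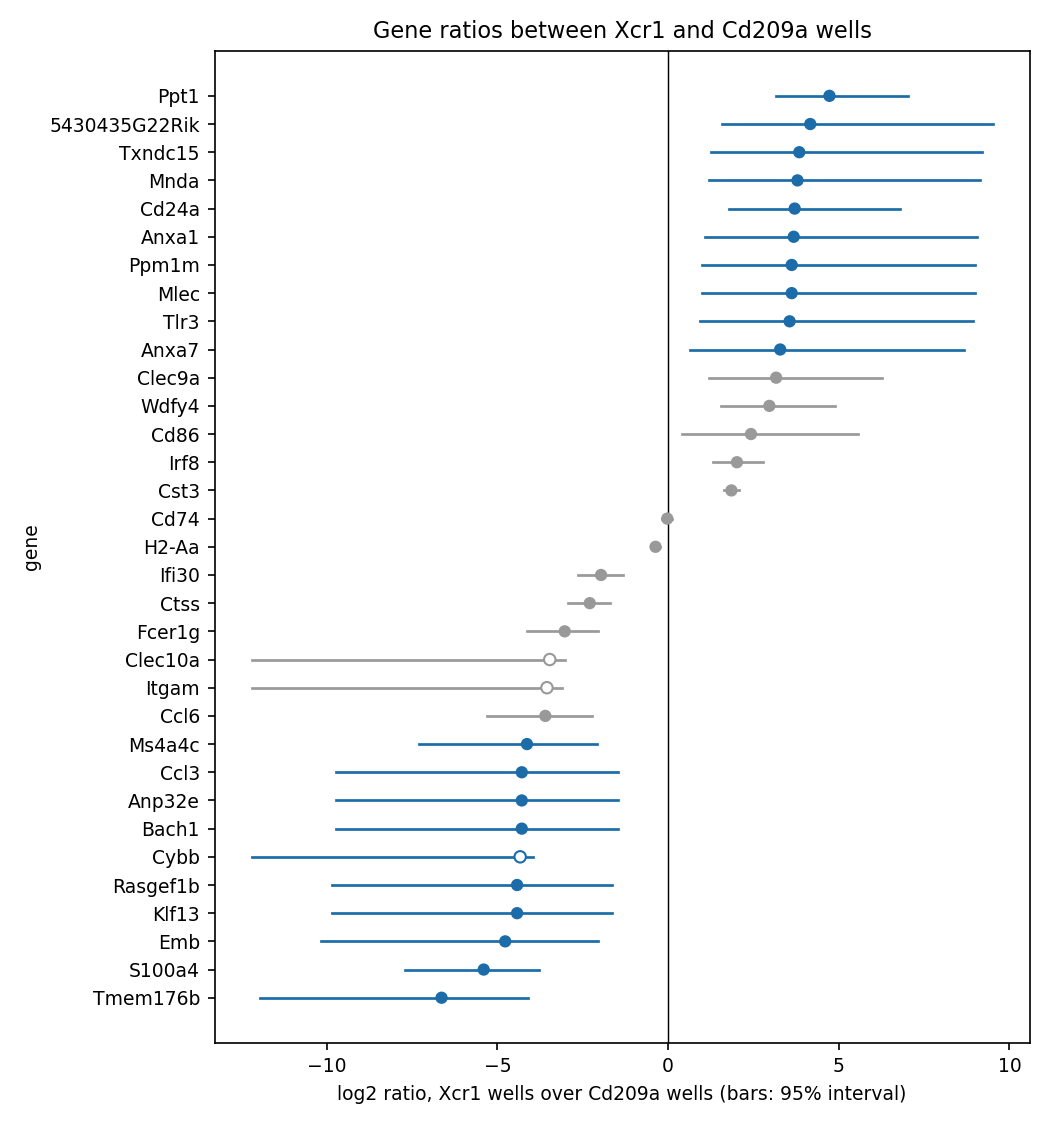
Log2 ratios of Xcr1 wells over Cd209a wells with exact 95% intervals for selected genes; filled points in blue are genes named by the fixed rule, grey points are other genes of the lists and open circles are bounds for genes at 0 UMIs in a subset. Ppt1 at 4.73 and Tmem176b at -6.64 stand at the ends, while Cd74 lies at -0.02; bars of open circles have no lower end and are drawn to a fixed length.

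The 42 wells with neither Xcr1 nor Cd209a carried macrophage and monocyte genes in part of their number, and were compared with the 49 wells with either. Of 1601 genes measured, 11% were at least 2-fold higher in wells with neither gene and 9.68% at least 2-fold lower. Lyz2, lysozyme, held 519 UMIs in wells with neither gene and 88 in wells with either (log2 ratio 3.11, interval 2.78 to 3.45), though reads of the related Lyz1 could be counted with it. A well with neither gene held 0 to 123 UMIs of Lyz2 with a median of 1, so the sum rests on a minority of wells, with 429 UMIs against 36 in the lower range of well numbers and 90 against 52 in the higher range. Csf1r, the receptor that sustains macrophages, held 86 UMIs in 20 wells against 19 UMIs in 10 wells (log2 ratio 2.73, interval 2.00 to 3.53). Ly6c2, a marker of inflammatory monocytes with the near-identical neighbour Ly6c1, held 37 UMIs in 8 wells against 1 UMI, and Axl, a receptor for dying cells, 52 UMIs in 13 wells against 3. The complement genes C1qa, C1qb and C1qc, which the Kupffer rule uses but the member rule does not, held 45, 61 and 60 UMIs in wells with neither gene, from 7, 8 and 7 wells, against 4, 9 and 6 in wells with either.

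Other genes with the largest ratios were Fcgr3, an activating Fc receptor, Lrp1, a scavenger receptor, Cebpb, a myeloid transcription factor, and Lamp1, a lysosomal membrane protein, with log2 ratios of 4.14, 3.87, 3.65 and 3.23, along with the predicted gene Gm20547 at 3.72. Lamp1 was found in 24 of 42 wells against 9 of 49, at median depths of 1249.5 and 2040 UMIs. The lysosome list followed it, with 14 of 17 measured genes above 0 and 11 past the fold, beside 11% of all genes. Lpl, lipoprotein lipase, held 25 UMIs in 8 wells with neither gene and 0 in the rest, at least 12.2-fold higher. Without the 7 members that also meet the Kupffer rule, 142 genes were at least 2-fold higher and 141 lower in wells with neither gene, in place of 176 and 155.

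Several genes that were high in Xcr1 wells were lower in the wells with neither gene than in the wells with either. Of the 49 wells with either, 30 were Xcr1 wells. Genes that go with Xcr1 were therefore low in wells with neither gene partly by choice. Flt3 held 4 UMIs in wells with neither gene and 37 in wells with either (log2 ratio -2.66, interval -4.61 to -1.18). Ppt1 held 24 and 158 UMIs (log2 ratio -2.17, interval -2.85 to -1.54), Clec9a 6 and 37, Cd24a 8 and 53, 5430435G22Rik 4 and 36, and Anxa1 4 and 26. The remaining named genes were H2-Ob with 4 and 33 UMIs, Havcr2 (TIM-3) with 5 and 37, Cope, a coatomer subunit gene, with 5 and 34, and Kpnb1, an importin gene, with 5 and 27. In the cDC1 list 11 of 12 measured genes were below 0, with a median of -1.43. Against Cd209a wells alone this list was not lower, with a level of 3417 in wells with neither gene and 2724 in Cd209a wells. The level of Ppt1 was 342 in wells with neither gene and 86 in Cd209a wells. Flt3 went the other way, with 9 UMIs in Cd209a wells and 4 in wells with neither gene. That is 4.53-fold higher in Cd209a wells (log2 ratio 2.18, interval 0.34 to 4.33), but 5 of the 9 UMIs came from 1 well. The class II genes H2-Aa and Cd74 had log2 ratios of -0.38 and -0.12.

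Against Kupffer wells, the resident macrophages, the members were low in genes of iron export, clearance and lysosomes. Kupffer wells needed at least 4 UMIs of Kupffer genes, while members were capped for Clec4f and Cd5l. Low counts of other Kupffer genes in members therefore largely describe the choice of wells. Slc40a1, the iron exporter ferroportin, held 3 UMIs in members and 1022 in Kupffer wells (log2 ratio -7.20, interval -9.48 to -5.65). The uptake receptors Folr2, Marco, Mertk, Timd4 and Cd163 and the lectin gene Fcna held 1, 1, 1, 2, 4 and 3 UMIs in members, against 319, 215, 208, 326, 338 and 766 in Kupffer wells. Nr1h3, the lipid-sensing nuclear receptor LXRα, had a log2 ratio of -5.20, the cyclooxygenase gene Ptgs1 -5.26 and the interferon-induced Gbp1 -5.45. All 12 measured iron and heme genes were below 0, with a median of -2.71, and 10 were past the fold, beside 21.9% of all genes. Of 15 scavenging and lipid genes, 13 were below 0, with a median of -2.48. In the lysosome list 18 of 20 genes were below 0, with Ctsb at -2.85 and Ctsd at -3.40, and the 2 exceptions were Cst3 (2.40) and Psap (0.88), which encodes prosaposin.

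Higher in members than in Kupffer wells were Sema4a, a semaphorin that costimulates T cells, with 31 UMIs against 3, Cd24a with 61 against 6, Clec9a with 43 against 5 and Olfm1 with 48 against 6. Amica1, an adhesion molecule gene, held 38 and 5 UMIs, Cbfa2t3, a transcriptional corepressor gene, 75 and 10 (log2 ratio 4.11, interval 3.16 to 5.23), S100a4 168 and 23, and Bri3bp 47 and 7. Sums over members join unlike subsets, as Xcr1 and Cd209a wells held 51 and 2 UMIs of Cd24a but 3 and 65 of S100a4. Among transcription factors Mycl1 held 26 UMIs in members and 1 in Kupffer wells (log2 ratio 5.91, interval 3.30 to 11.27), Rbpj, which acts in Notch signalling, had a log2 ratio of 2.53 and Irf8 2.13. Maf, a regulator of macrophages, was at -3.12. Actin and motility genes were above 0 in 16 of 20 cases, with Tmsb10 at 2.46, Coro1a at 2.03 and Vim at 1.69, but the median of that list turned from 0.48 to -0.24 with size factors. Ccr2, the chemokine receptor of monocytes and cDC2, held 137 UMIs in 44 members and 46 in 16 Kupffer wells (log2 ratio 2.78, interval 2.29 to 3.30), but was at -0.34 without members holding at least 2 UMIs of the monocyte or neutrophil lists, of which Ccr2 is a member.

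**Figure D5:**
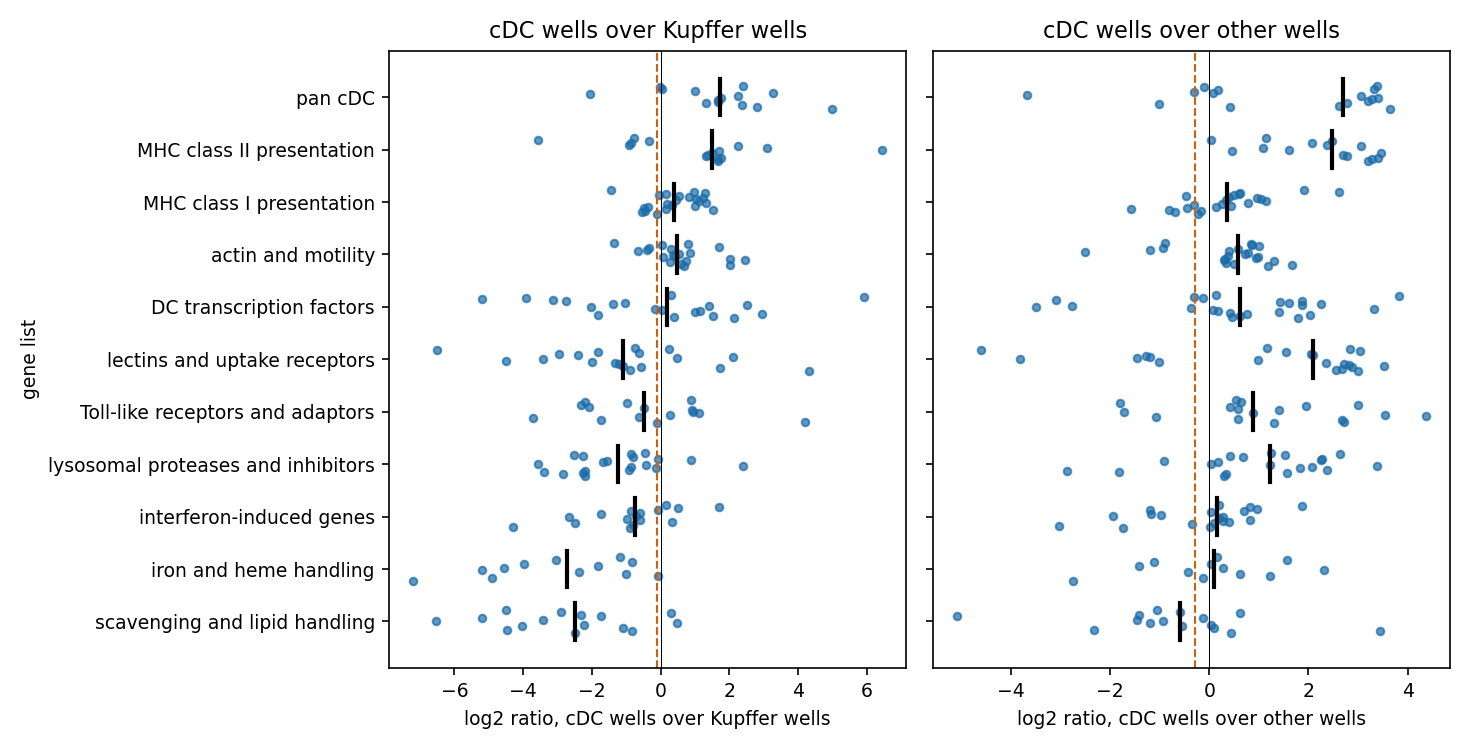
Log2 ratios of members over Kupffer wells (left) and over other wells (right) by gene list; each dot is a gene, black bars are list medians and the dashed orange line is the median of all measured genes, -0.11 and -0.29. The class II and cDC lists lie to the right in both panels, while the iron, scavenging and lysosome lists lie to the left against Kupffer wells.

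Against all other wells, the genes with the largest ratios included integrins, signalling genes and a late endosomal GTPase. They were 5430435G22Rik (log2 ratio 4.87, interval 3.98 to 5.83), Tbc1d9, Slamf8, 4930506M07Rik, Pak1, P2ry6, a receptor for extracellular nucleotides, Pid1, Itgam, Itgae (CD103) and Ms4a6c, down to a log2 ratio of 3.85. Not all were shared by the subsets, as Itgam held 0 UMIs in Xcr1 wells and 5430435G22Rik 1 UMI in Cd209a wells. The lowest ratios included markers of endothelial cells, whose wells the cap on Clec4g left out of the members. Lyve1 held 1 UMI in members and 1421 in other wells, Flt4 1 and 819, and Nr2f2 1 and 693. Sdpr, Slc43a3, Cd300lg, Gpr116, Cd59a, Ppap2b and Cd55 held 1 to 3 UMIs in members. The lysosome list turned its direction between the comparisons, with 17 of 20 genes above 0 against other wells and a median of 1.23, in place of -1.23 against Kupffer wells. With size factors the counts against other wells were 488 genes higher and 3792 lower, in place of 910 and 2578.

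Genes of activated or migrating dendritic cells were summed over each class. The list of 20 genes held 168 UMIs in members, or 970 per 1000000, against 1058 per 1000000 in Kupffer wells and 1148 in other wells. At least 2 UMIs of the list were found in 29 of 91 members, and 5 of the 20 genes were at 0 in members. Of 9 genes measured against Kupffer wells, 3 were at least 2-fold higher and 3 at least 2-fold lower, beside 14.8% and 21.9% of all genes. Cd40, a receptor for T cell help, held 24 UMIs in members and 8 in Kupffer wells (log2 ratio 2.79, interval 1.59 to 4.16). Ccr7, which guides dendritic cells to lymph nodes, held 2 UMIs in 1 member, and Fscn1, Il12b and Cd80 were found in 0 of 91 members, which allows a share of up to 3.30% with a UMI of each. The interferon-induced chemokine gene Cxcl9 held 310 UMIs in 19 of 91 members and 75 UMIs in 23 of 313 Kupffer wells (log2 ratio 3.26, interval 2.89 to 3.64). Thinned to 300 UMIs, 9.89% of members and 4.47% of Kupffer wells kept a Cxcl9 UMI. Of those 310 UMIs, 54.8% came from 3 wells, the highest well held 65 and 9 wells held at least 10. The wells with Cxcl9 were 11 with neither gene, 5 Xcr1 wells and 3 Cd209a wells. Cxcl10 was found in 4 members, and all 4 also held Cxcl9.

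Receptor genes of the members were absent from or sparse in the counts of the hepatocyte pairs. Xcr1, Cd209a and Flt3 were found in 0 of 4621 pairs, which allows a share of up to 0.0649% of pairs with a UMI of each. Clec9a was found in 18 pairs, which is 0.390% of them. Ifi205 and Wdfy4 were found in 2 pairs each and H2-Aa in 27. Plbd1 was found in 26.5% of pairs, Cst3 in 83.6% and Ppt1 in 22.9% of them.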

How the data were processed

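Livers were perfused with collagenase and cells sorted into plates for MARS-seq, per the labels' protocols. The submitters' processing notes name bcl2fastq 2.15.0.4 and the build mm9. For the aligner and annotation, the sources used here give no name. The authors deposited counts of UMIs by gene symbol in each well, not normalized. Removed were 92 ERCC spike-in rows, which took 52.8% of all UMIs, and 68 symbols that differ only in letter case.

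Wells under 300 gene UMIs (1028 of 3720) were left out. UMIs were summed per class with exact Poisson intervals, and ratios have exact conditional binomial intervals. Genes needed 20 UMIs over both classes, or 10 between Xcr1 and Cd209a wells. Genes of the member rule were left out of every comparison, and the 6 genes that define Kupffer wells where members were set against Kupffer or other wells. A class at 0 UMIs was set to a floor of 3 counts over the class. Named genes are the 10 largest ratios each way with at least 30 UMIs (10 between Xcr1 and Cd209a wells) and separate intervals, plus list members. Doublets were not called, so wells that received more than 1 cell were not told apart. Ratios were tested on simulated counts. Members, lists and rules were chosen with earlier results of these data known, and the comparison of wells with neither gene was added after the data were examined. The alternatives were other minimums, scalings, thinning, blocks of wells and left-out members. Python 3.11.15, numpy 2.4.6, scipy 1.17.1, pandas 2.3.3 and matplotlib 3.10.9 were used.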

Additional observations from a re-analysis of the deposited data

How the results depend on the processing

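No paired analysis was possible because wells carry no mouse or library name, and no sample could be left out in turn for the same reason. None of the 80 ratios of genes named by the fixed rule changed sign under the alternatives that gave a value. These genes were chosen for large ratios with separate intervals in the same counts, so few changes of sign could occur. Of their 1152 values under the alternatives, 87 lay outside the interval of the main ratio. Ccr2 against Kupffer wells turned to -0.34 without members holding at least 2 UMIs of the monocyte or neutrophil lists, which include Ccr2, and to -0.65 when Lyz2, S100a6 and Gpx1 were not counted for that choice, an alternative added after the data were examined. Psap turned to -0.20 under the first of these, which left 11 members.

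Counts of genes at least 2-fold higher and lower moved by more than 1.5 times as follows, with the order of comparisons being Kupffer wells, other wells, Xcr1 over Cd209a wells and neither over either. Size factors gave 195 and 2249 genes against Kupffer wells and 488 higher against other wells. Thinning wells to 300 UMIs, which measures fewer genes, gave 198 and 309, then 729 lower, 36 and 25, and 9 and 15. At the halved gene minimum the counts were 1241 and 1690 for Kupffer wells, 816 and 599 for Xcr1 over Cd209a wells and 553 and 526 for the neither wells. At the doubled minimum they were 405 and 582, 107 and 66, and 55 and 39. With no filter they were 1625 and 2026, 1459 higher against other wells, 816 and 646, and 1055 and 1005. The 11 members without monocyte or neutrophil list UMIs gave 252 lower, 1486 higher and 222 lower against other wells, and 1 and 20, with no value for Xcr1 over Cd209a. The narrower form of that choice kept 37 members and gave 1450 lower against other wells, 93 and 77, and 31 and 55.

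The 36 members of the lower well numbers gave 155 and 150 for Xcr1 over Cd209a and 102 and 88 for neither over either. The 55 of the higher numbers gave 377 and 549, 1703 lower against other wells, 145 and 144, and 56 and 68. The 49 members with Xcr1 or Cd209a only moved no gene count by that much. The Cd209a wells held 34877 UMIs in sum, which limits the precision of their ratios.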

Other observations

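Cxcl9 and Cxcl10 are chemokines that draw activated T cells. Among the members with Cxcl9, the 3 highest wells of the 5 Xcr1 wells held 91 of 97 UMIs, so the level of a subset follows single wells. These wells were singled out after their values were seen.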
